A study of Mus musculus with 38 samples.

Results

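The bone mineral matrix and osteoblast genes described here are 9 mouse genes whose products are laid down in bone matrix or act on its mineral: Bglap, Bglap2, Spp1, Ibsp, Alpl, Dmp1, Phex, Mepe and Fam20c. They were chosen by their gene symbols and not by any measured value. The expression table holds 13260 genes, and 8 of the 9 have a row in it. The expression of Mepe was not analysed here.

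RNA-Seq was performed on 38 libraries, each made from 100 sorted cells of C57Bl/KaLwRijHsd mice. The mice were 8 to 10 weeks old, received an intravenous injection of PBS vehicle (healthy) or of 1000000 5TGM1-GFP cells (myeloma-bearing), and were culled on day 23. 5TGM1-GFP is a mouse myeloma line marked with green fluorescent protein, so the tumour of every diseased mouse is that of a single transplanted line. Bone-lining cells were released with collagenase after the marrow had been removed, and were sorted by surface markers into osteoprogenitors (ALCAM+Sca1-, 4 healthy and 4 myeloma-bearing libraries), stromal progenitors (Sca1+ALCAM-, 5 and 5) and endothelial cells (CD31+, 5 and 5). Myeloma cells were sorted as GFP+ cells from the bone lining (5 libraries) and from the central bone marrow (5 libraries) of myeloma-bearing mice. According to the design text the replicates of a group are different mice, but the labels do not say that the letter naming a library stands for 1 mouse across cell types. Values are RPKM, reads per kilobase of transcript, scaled to the size of each library. The library sizes behind these values are not proportional to the reads on genes, so scaling by total reads, given below, shifts levels between libraries. Under the deposited scaling, levels may be compared between genes as well as between libraries. The exception is a gene that shares sequence with another, as the osteocalcin genes do.

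Osteoblasts secrete a collagen I matrix and then mineralise it. Osteocalcin, the product of Bglap and Bglap2, is a small vitamin K-dependent protein that binds mineral. Osteopontin (Spp1), bone sialoprotein (Ibsp), dentin matrix protein (Dmp1) and MEPE are acidic phosphoproteins with integrin-binding motifs, encoded side by side. Tissue-nonspecific alkaline phosphatase (Alpl) removes pyrophosphate, an inhibitor of mineral growth, PHEX is a membrane peptidase that acts in phosphate balance, and FAM20C is the secretory kinase that phosphorylates the acidic proteins. Dmp1 and Phex are best known from late osteoblasts and osteocytes, whereas osteopontin is made by many cell types besides osteoblasts.

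On GRCm38 the osteocalcin copies lie within 15.8 kb of chromosome 3, all on the minus strand, with Bglap at chr3:88383501-88384464 and Bglap2 at chr3:88377736-88378699. A further copy, Bglap3 at chr3:88368616-88372743, is not one of the 9 genes but bears on how reads of the other copies were assigned. The coding sequences, built from the exons of GENCODE release M21 (GRCm38) and 288 bases long in each copy, are shown because their likeness limits what the Bglap and Bglap2 values can separate. Capitals mark bases at which the copies differ, in Bglap and Bglap2 from each other and in Bglap3 from Bglap.
Bglap: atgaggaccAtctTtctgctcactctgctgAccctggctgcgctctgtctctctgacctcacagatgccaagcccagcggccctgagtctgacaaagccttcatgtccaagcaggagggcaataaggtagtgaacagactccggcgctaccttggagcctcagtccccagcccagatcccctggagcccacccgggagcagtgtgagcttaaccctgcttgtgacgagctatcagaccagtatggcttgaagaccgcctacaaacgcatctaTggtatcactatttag
Bglap2: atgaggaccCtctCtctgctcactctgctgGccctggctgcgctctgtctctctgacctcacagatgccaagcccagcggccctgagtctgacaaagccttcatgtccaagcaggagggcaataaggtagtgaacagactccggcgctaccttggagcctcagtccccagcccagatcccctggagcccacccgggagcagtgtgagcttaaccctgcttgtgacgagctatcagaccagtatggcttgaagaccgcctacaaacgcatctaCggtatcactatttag
Bglap3: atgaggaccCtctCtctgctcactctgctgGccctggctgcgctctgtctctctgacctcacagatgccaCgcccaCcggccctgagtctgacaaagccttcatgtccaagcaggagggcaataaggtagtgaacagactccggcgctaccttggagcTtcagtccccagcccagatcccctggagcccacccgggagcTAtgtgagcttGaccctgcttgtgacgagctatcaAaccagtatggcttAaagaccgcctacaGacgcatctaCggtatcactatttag
Bglap and Bglap2 differed at 4 of 288 coding bases (98.6% identical), Bglap and Bglap3 at 13 (95.5%), and Bglap2 and Bglap3 at 9 (96.9%). Of all windows of 50 bases, the read length of the study, in the annotated transcripts, 74.68% of those in Bglap and 88.15% of those in Bglap2 also occurred in another copy. In Bglap3 12.48% occurred in another gene, the other copies included. Reads from such windows align to more than 1 place and are left out by featureCounts in its default mode. The values of Bglap and Bglap2 therefore rest on the small part of each transcript that is its own, and how the reads were divided between the copies is uncertain. Their RPKM, the ratio of one to the other and their ranks among genes carry this limit, whereas a gene is compared with itself between libraries. No 50-base window of Ibsp, Alpl, Dmp1 or Fam20c occurred in another gene. In Phex 0.70% did, and in Spp1 11.59% did, all with Gm42793, an annotated transcript that overlaps Spp1, and the source of Spp1 reads in that stretch cannot be told apart without strand.

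Reads on genes ranged from 9735031 to 34883291 per library (median 18358479), and no 2 libraries held identical values. Of 20 cell type markers fixed for the check, 19 were highest in the cell type they mark. The exception was Ly6a, which encodes the sorting marker Sca1 and was higher in endothelial cells than in stromal progenitors. Chondrocyte markers were high in both mesenchymal populations, with a summed level of 2662 to 7753 RPKM over the 7 genes in osteoprogenitors and 764 to 3892 RPKM in stromal progenitors, and all 7 were detected in both. Neutrophil and erythroid markers summed to 7233 RPKM in healthy stromal progenitor library L and to 8061 RPKM in myeloma-bearing stromal progenitor library E. The part of these other cells in the results below was not tested. In bulk libraries such as these, fewer cells of a type and less RNA per cell cannot be told apart.

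**Figure D1:**
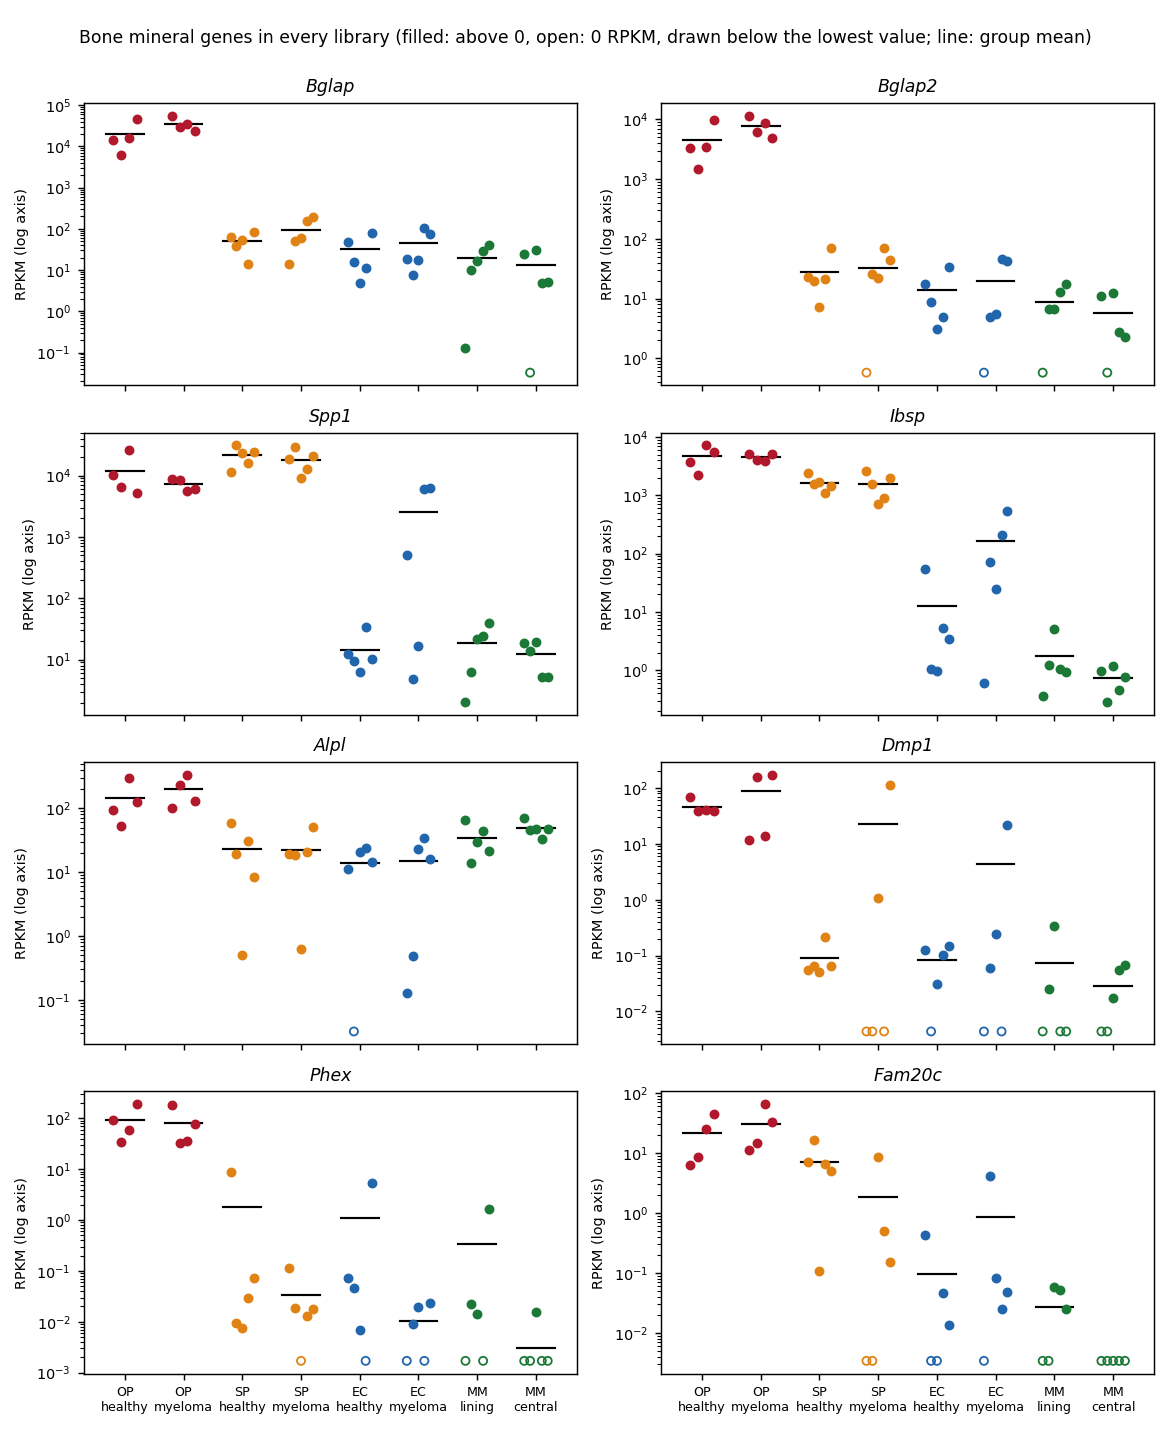
Level of each of the 8 measured genes in every library, in RPKM on log axes, by group (OP for osteoprogenitors, SP for stromal and EC for endothelial cells, MM for myeloma). Points are libraries, open points are libraries at 0 and lines are group means. Bglap, Bglap2 and Phex in osteoprogenitors lie above every library of the other cell types, whereas Spp1 is highest in stromal progenitors.

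Osteocalcin was among the most abundant transcripts of the osteoprogenitors. By mean RPKM Bglap ranked 4 of 13260 genes in healthy and 1 in myeloma-bearing osteoprogenitors. Over all 8 libraries Bglap ranked 1 and Bglap2 ranked 10, but Mgp, the matrix Gla protein gene, named after its values were seen, lay close to Bglap, with 25018 ± 10135 RPKM (SD, n = 4) in healthy and 29242 ± 2522 RPKM (SD, n = 4) in myeloma-bearing mice, and it was above Bglap in 3 of 4 healthy and 1 of 4 myeloma-bearing libraries. Without library D Bglap ranked 4 over the remaining 7 libraries, and without library O it ranked 3. Bglap stood at 13983, 6211, 15756 and 45659 RPKM in healthy osteoprogenitor libraries L, M, N and O and at 54769, 29189, 35374 and 23958 RPKM in myeloma-bearing libraries D, G, I and J. The spread was wide, 20402 ± 17341 RPKM (SD, n = 4) in healthy mice against 35823 ± 13465 RPKM (SD, n = 4) in myeloma-bearing mice, and the 2 groups overlapped. Every other library lay far lower, at 14.1 to 197 RPKM in stromal progenitors, 4.79 to 108 RPKM in endothelial cells and 0 to 40.9 RPKM in myeloma cells. Below the osteoprogenitors the order of the group means was stromal progenitors, endothelial cells and myeloma cells, but each neighbouring pair of groups in that order overlapped.

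Bglap2 followed the same pattern at a lower level. It ranged from 1481 to 11454 RPKM in osteoprogenitors, from 0 to 69.9 RPKM in stromal progenitors, from 0 to 45.4 RPKM in endothelial cells and from 0 to 17.8 RPKM in myeloma cells. The ratio of Bglap2 to Bglap was nearly fixed in osteoprogenitors, at 0.223 ± 0.0155 (SD, n = 8, range 0.205 to 0.243), although Bglap itself varied widely among these libraries. In the other cell types the ratio was more variable, at 0.491 ± 0.422 (SD, n = 10) in stromal progenitors, 0.436 ± 0.190 (SD, n = 10) in endothelial cells and 0.422 ± 0.178 (SD, n = 9) in myeloma cells. Counts were lower there, since Bglap had 123 to 2449 reads in stromal progenitors against 48953 to 523875 in osteoprogenitors. Myeloma-bearing stromal libraries I and J, with 2449 and 2177 Bglap reads, stood at 0.444 and 0.221. Myeloma-bearing endothelial library J (1624 reads) stood at 0.566. Healthy library O stood at 0.426 in endothelial cells (1200 reads) and at 0.848 in stromal progenitors (1147 reads). The cause of the difference from osteoprogenitors was not tested. Bglap3 was at 0.259 to 21.6 RPKM in osteoprogenitors, at most 0.0430% of Bglap in the same library, and had no read in any stromal progenitor or endothelial library, a count that allows up to 3 reads per library. It had 1 read in myeloma cells, in bone-lining library E.

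**Figure D2:**
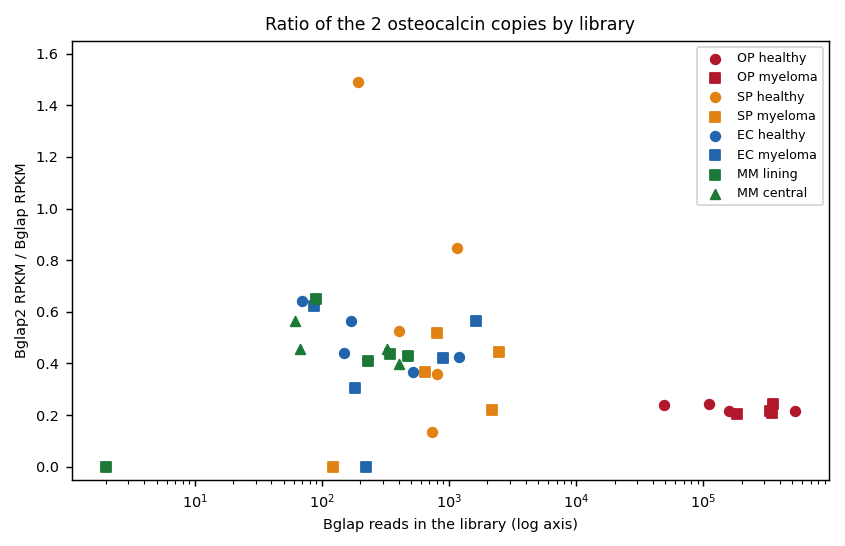
Ratio of Bglap2 to Bglap RPKM in each library with a Bglap read (vertical axis) against the Bglap reads of that library (horizontal log axis). The 8 osteoprogenitor libraries sit between 0.205 and 0.243 at the highest read counts, and the libraries of the other cell types scatter from 0 to 1.49.

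Among the acidic phosphoproteins, Spp1 was not most abundant in osteoprogenitors. It ranked 5 among all genes by mean RPKM in stromal progenitors and 9 in osteoprogenitors. Healthy stromal progenitor libraries C, L, M, N and O held 11535, 30977, 23675, 16270 and 24331 RPKM and myeloma-bearing libraries D, E, G, I and J held 18699.7, 29095, 9108, 12692 and 21148 RPKM. Osteoprogenitors held 10383, 6506, 25882 and 5136 RPKM (healthy, L, M, N and O) and 8836, 8402, 5577 and 5985 RPKM (myeloma-bearing, D, G, I and J). All 10 stromal progenitor libraries were above the lowest osteoprogenitor library, and in healthy mice the groups overlapped because of osteoprogenitor library N. Myeloma cells ranged from 2.04 to 39.9 RPKM.

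Ibsp, which encodes a protein that binds and nucleates mineral, went the other way between the same populations. It stood at 3804, 2259.5, 7200.3 and 5633 RPKM in healthy and at 5185, 4019.8, 3835 and 5203 RPKM in myeloma-bearing osteoprogenitors. Stromal progenitors still held 1117 to 2421 RPKM in healthy and 699 to 2623 RPKM in myeloma-bearing mice, so that Ibsp ranked 17 of 13260 genes in osteoprogenitors and 47 in stromal progenitors. In healthy mice 1 osteoprogenitor library, M, lay within the stromal range, and in myeloma-bearing mice the groups did not overlap. Ibsp was at 0.284 to 5.15 RPKM in myeloma cells.

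Dmp1 was at 68.9, 38.1, 40.6 and 38.4 RPKM in healthy osteoprogenitors (L, M, N and O). In myeloma-bearing osteoprogenitors the libraries fell apart, with G and J at 158 and 173 RPKM and D and I at 11.9 and 14.0 RPKM. Elsewhere it was close to 0, at most 0.216 RPKM in healthy stromal progenitors and 0.336 RPKM in myeloma cells, with exceptions in libraries of the letter J. The myeloma-bearing stromal progenitor library J held 112 RPKM, while the next highest, G, held 1.06 RPKM and the other 3 were at 0, and the myeloma-bearing endothelial library J held 21.8 RPKM against at most 0.245 RPKM in the other 4.

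Of the genes of phosphate handling, Alpl was also well detected in myeloma cells. In osteoprogenitors it stood at 92.9, 52.4, 302 and 124 RPKM in healthy and 102, 228, 335 and 131 RPKM in myeloma-bearing osteoprogenitors (L, M, N, O and D, G, I, J). Stromal progenitors ranged from 0.498 to 58.2 RPKM and endothelial cells from 0 to 33.9 RPKM. Myeloma cells held more than either by group mean, 34.8 ± 20.4 RPKM (SD, n = 5) at the bone lining against 48.6 ± 14.1 RPKM (SD, n = 5) centrally, with at least 501 reads in every library, although these ranges overlapped with the stromal range. Of the 10 myeloma libraries 2 lay above the lowest osteoprogenitor library.

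Phex, like Bglap and Bglap2, was higher in every osteoprogenitor library than in any library of the other cell types. Osteoprogenitors held 93.1, 33.9, 60.2 and 191 RPKM in healthy and 184, 32.6, 35.9 and 79.0 RPKM in myeloma-bearing mice. The highest value elsewhere was 9.0 RPKM, in healthy stromal progenitor library C, followed by 5.42 RPKM in healthy endothelial library O and 1.67 RPKM in bone-lining myeloma library J. Each of these 3 libraries stood alone in its group, whose other libraries were at most 0.0737 RPKM.

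Fam20c, the kinase gene, had the lowest mean RPKM of the 8 in osteoprogenitors, with 6.34, 8.68, 24.9 and 45.2 RPKM in healthy and 11.3, 14.4, 65.1 and 33.2 RPKM in myeloma-bearing mice. In osteoprogenitor libraries O and I it was above Dmp1. Healthy stromal progenitors C, L, N and O held 7.08, 16.4, 6.44 and 5.01 RPKM and overlapped with them, and library M held 0.108 RPKM. In myeloma-bearing stromal progenitors library G held 8.61 RPKM and the other 4 at most 0.494 RPKM. All 5 central myeloma libraries had no read of Fam20c, which allows up to 3 reads in each.

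In share of the sequenced reads, the 8 genes together took 4.10% ± 1.95 (SD, n = 4) of reads on genes in healthy and 4.28% ± 0.885 (SD, n = 4) in myeloma-bearing osteoprogenitors. In stromal progenitors they took 2.92% ± 0.796 (SD, n = 5) and 2.46% ± 0.971 (SD, n = 5), most of it Spp1 (2.66% and 2.22%). Endothelial cells had 0.0123% ± 0.00829 (SD, n = 5) in healthy and 0.510% ± 0.649 (SD, n = 5) in myeloma-bearing mice, where single libraries ranged from 0.0163% to 1.32%. Bglap and Bglap2 made up 1.32% of reads in healthy and 2.29% in myeloma-bearing osteoprogenitors, and Spp1 1.84% and 1.07%, with overlapping libraries for both.

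**Figure D3:**
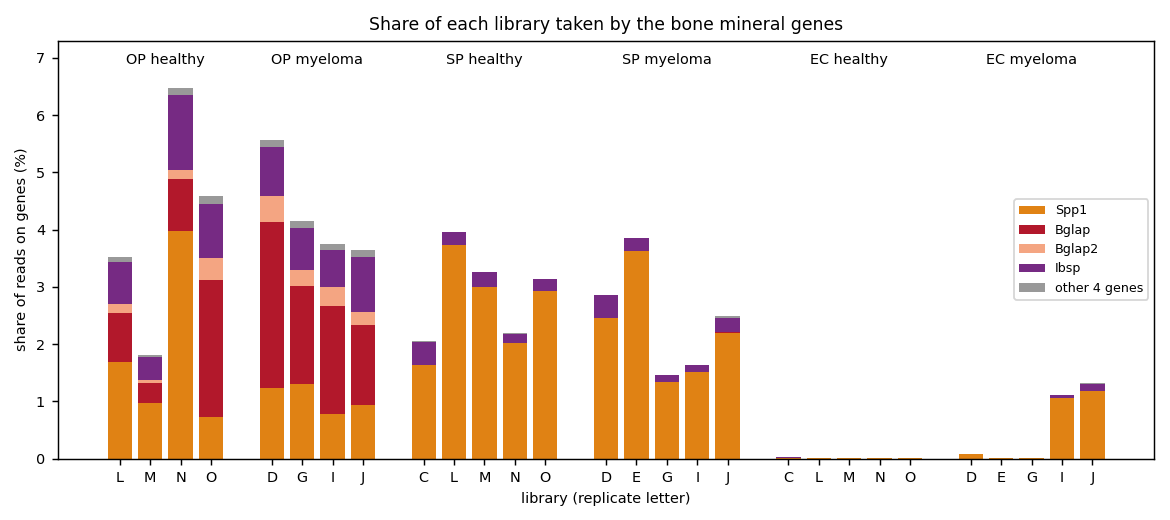
Share of reads on genes (%, vertical axis) taken by the 8 genes in each osteoprogenitor (OP), stromal progenitor (SP) and endothelial (EC) library, named by letter. Bars are stacked by gene, with Alpl, Dmp1, Phex and Fam20c in grey. Osteocalcin, Spp1 and Ibsp share the osteoprogenitor bars, with Spp1 the largest part in healthy libraries L, M and N and osteocalcin in the other 5. Spp1 is most of each stromal bar, with Ibsp the next part. Of the endothelial bars those of myeloma-bearing libraries I and J stand out.

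The first comparison asked how osteoprogenitors differed from stromal progenitors, the other mesenchymal population of the bone lining. A gene was called different at a Benjamini-Hochberg adjusted p-value below 0.1 over all genes tested and an absolute log2 fold change above 1 in limma, on the log2(RPKM + 1) scale, which understates changes of low genes. In healthy mice 5 of the 8 genes were called, all higher in osteoprogenitors, where 3.58% of the 8707 genes tested were called and 1.69% were called higher. Bglap was higher by a log2 fold change of 8.47 ± 0.55 (SE, adjusted p = 1.07e-06) and Bglap2 by 7.29 ± 0.59 (adjusted p = 1.00e-05). In voom-limma on the recovered reads of all libraries neither was called (adjusted p = 0.994 and 0.111), and 4 of the 8 genes were, Ibsp, Alpl, Dmp1 and Phex. Phex followed with 5.60 ± 0.92 (adjusted p = 0.00470), Dmp1 with 5.40 ± 0.76 (adjusted p = 0.00162) and Ibsp with 1.44 ± 0.33 (adjusted p = 0.0307). Alpl had 3.07 ± 0.90 (adjusted p = 0.108), Fam20c 1.54 ± 0.94 (adjusted p = 0.548) and Spp1 -1.05 ± 0.41 (adjusted p = 0.266), and none of these 3 passed the test. Dmp1 and Phex entered the test through osteoprogenitors alone, or nearly so, since at most 1 stromal library exceeded the filter of 1 RPKM, so their calls carry little beyond that filter. The groups did not overlap for 4 of the 8 genes, all of them higher in osteoprogenitors, as was so for 2.94% of the genes tested. Of all called genes 147 were higher and 165 lower, or 206 and 133 when scaled by total reads, which moved the median log2 fold change of all genes from 0.0013 to 0.18. Without osteoprogenitor library O 3 genes were called, Bglap, Bglap2 and Phex. Ibsp then did not pass, nor without N, and Dmp1 was not tested without any one of the 4 osteoprogenitor libraries, since fewer than 4 libraries then exceeded the filter. Without library N Spp1 passed the test as lower in osteoprogenitors (-1.52, adjusted p = 0.0426).

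In myeloma-bearing mice 7 of the 8 genes were called between the same populations, against 3.35% of 8793 genes tested, 1.60% being called higher. Osteoprogenitors were higher in Bglap (8.96 ± 0.57, adjusted p = 1.19e-07), Bglap2 (8.68 ± 0.89), Phex (5.99 ± 0.89), Fam20c (3.87 ± 1.00, adjusted p = 0.0577), Alpl (3.59 ± 0.84, adjusted p = 0.0322) and Ibsp (1.70 ± 0.35, adjusted p = 0.0145). Spp1 was lower, with a log2 fold change of -1.25 ± 0.29 (adjusted p = 0.0318), 7200.3 ± 1657 RPKM (SD, n = 4) against 18149 ± 7756 RPKM (SD, n = 5) and no overlap. Dmp1 had 4.02 ± 1.38 (adjusted p = 0.186) and was not called, but was called without stromal library J (5.33, adjusted p = 0.0184). Phex and Fam20c passed the filter almost only through osteoprogenitors. The number of called genes depended on single libraries and on the fit, being 3 or 4 of 8 without osteoprogenitor library G, I or J, and Bglap, Bglap2 and Ibsp were called in each of these fits. Phex was not tested in them, since fewer than 4 libraries then exceeded the filter. The number was also 3 with no filter on low values (Bglap, Bglap2 and Phex), 4 with no variance trend (these 3 and Fam20c) and 5 in voom-limma on the recovered reads (Bglap2, Alpl, Dmp1, Phex and Fam20c). Scaled by total reads, the median of all genes was 0.17, 185 genes were called higher and 117 lower (141 and 154 as deposited), and Spp1 had -0.998, just short of the fold threshold. Bglap and Alpl belong to the genes by which the study describes its osteoprogenitors, so their direction is not independent evidence.

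Osteoprogenitors were also compared with endothelial cells of healthy mice and, in myeloma-bearing mice, with myeloma cells of the bone lining. All 8 genes were called higher in osteoprogenitors in both comparisons and none of the 8 overlapped, where 16.5% of 8258 genes were called against endothelial cells (9.81% higher) and 42.9% of 9316 genes against myeloma cells (18.4% higher). Of the genes tested, 8.21% against endothelial and 14.7% against myeloma cells were higher in osteoprogenitors without overlap. Against endothelial cells Bglap, Spp1 and Ibsp were all higher by log2 fold changes of 9.52 to 9.56, and Alpl by 3.55 ± 1.01 (adjusted p = 0.0354). Against myeloma cells Bglap had 11.44 ± 0.84, Ibsp 10.90 ± 0.45 and Alpl the smallest difference, 2.52 ± 0.51 (adjusted p = 0.00204). Of the genes called against myeloma cells 1718 were higher and 2278 lower, or 1416 and 3428 when scaled by total reads, with the median of all genes at -0.39 and -0.89, and the 8 genes were called higher under both scalings. In both comparisons Dmp1, Phex and Fam20c passed the filter almost only through osteoprogenitors. Without osteoprogenitor library N or O, 5 genes were called against endothelial cells of the 6 tested, since Dmp1 and Fam20c no longer reached the filter, and Alpl did not pass (log2 fold changes of 3.09 and 3.52). In voom-limma on the recovered reads of all libraries Bglap, Spp1 and Ibsp were not called in these comparisons, nor Bglap against stromal progenitors, and the fitted precision weights of these very abundant genes ran out of range.

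**Figure D4:**
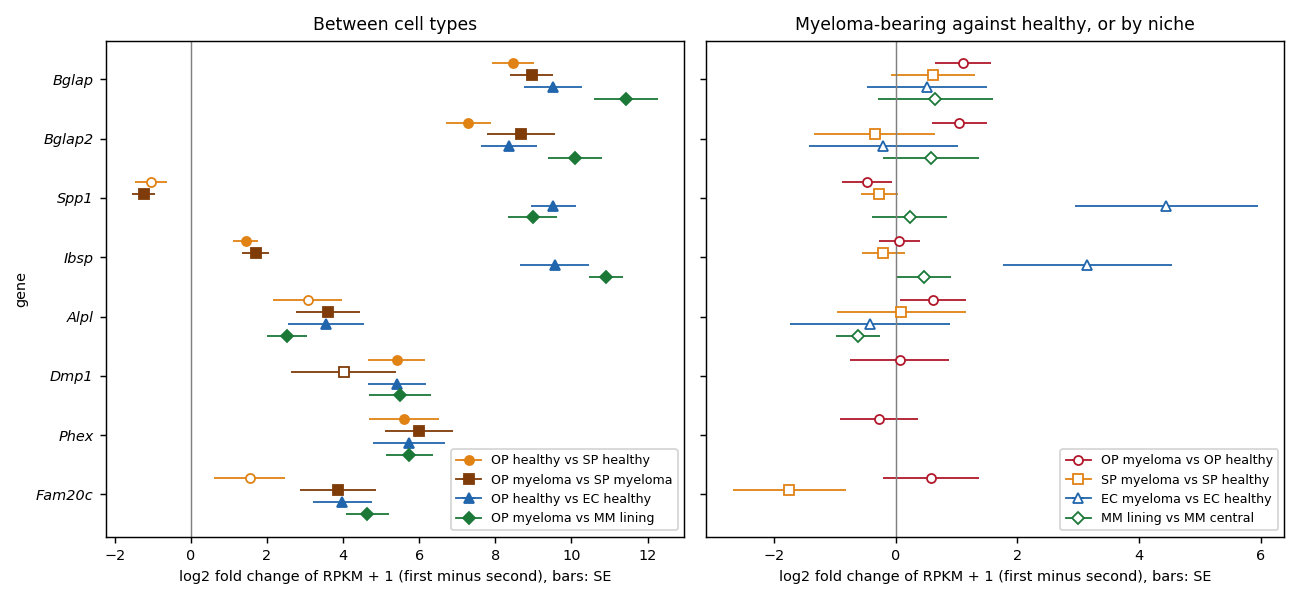
Log2 fold change of RPKM + 1, first group minus second, for each gene (rows) with its SE as bars. Left, osteoprogenitors against the other cell types. Right, myeloma-bearing against healthy mice within a cell type, and bone-lining against central myeloma cells. Filled symbols passed both thresholds and open symbols did not. No symbol is filled on the right, and genes that did not pass the filter have none.

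The presence of myeloma was compared within each cell type. In osteoprogenitors 0 of the 8 genes were called, where 0.0115% of 8664 genes tested (1 gene) were. Bglap had a log2 fold change of 1.11 ± 0.46 (adjusted p = 0.981) and Bglap2 of 1.05 ± 0.46 (adjusted p = 0.981). Spp1 had -0.46 ± 0.41 (adjusted p = 0.993), and the other 5 genes lay between -0.27 and 0.62. The 2 groups overlapped for all 8 genes, and did not for 2.65% of the genes tested. Over all genes, 422 had an unadjusted p below 0.05, and voom-limma on all libraries called 28 genes, with none of the 8 among them.

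In stromal progenitors 0 of the 6 genes tested were called, and 0% of 8747 genes were, with 437 at an unadjusted p below 0.05 and 82 called by voom-limma. Fam20c had -1.74 ± 0.93 (adjusted p = 0.956), and the other 5 genes lay between -0.34 and 0.62. Dmp1 and Phex did not pass the filter, and the single stromal libraries with Dmp1 (J, myeloma-bearing) or Phex (C, healthy) set their group means. The change in osteoprogenitors did not pass a test against the change in stromal progenitors for any of the 8 genes, and was called for 0% of 10735 genes (437 at an unadjusted p below 0.05, 16 called by voom-limma). The largest interaction was that of Fam20c, 2.33 ± 1.33 (adjusted p = 1.00).

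In endothelial cells 0 of the 5 genes tested were called, and 0% of 7880 genes were, with 414 at an unadjusted p below 0.05 and 251 called by voom-limma. Of the 8 genes, where tested, Spp1 and Ibsp had the widest log2 differences of RPKM + 1 between myeloma-bearing and healthy mice in any of the 3 cell types. Spp1 stood at 12.6, 9.41, 6.29, 34.1 and 10.2 RPKM in healthy libraries C, L, M, N and O and at 503, 4.93, 16.9, 5984 and 6302 RPKM in myeloma-bearing libraries D, E, G, I and J. Libraries I and J were thus at the level of osteoprogenitors and D between, while E and G were below the highest healthy library. Its log2 fold change was 4.45 ± 1.51 (adjusted p = 0.867). Ibsp was at 53.6 RPKM in healthy library C and 0.984 to 5.34 RPKM in the other 4, against 0.603, 72.6, 24.9, 208 and 530 RPKM in myeloma-bearing libraries D, E, G, I and J, with a log2 fold change of 3.15 ± 1.39 (adjusted p = 0.925). With all 38 libraries in one fit both were called (adjusted p = 0.0309 for Spp1 and 0.0574 for Ibsp), where 258 genes were called in total. That fit takes the spread of a gene from all groups together. The log2 SD of Spp1 was 4.67 in myeloma-bearing and 0.85 in healthy endothelial libraries. These adjusted p-values therefore do not measure the spread among the endothelial libraries alone. Without libraries I and J the log2 fold change of Spp1 was 1.51, and without D, I and J it was -0.36.

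Other osteoblast genes were read beside them in the same 5 libraries. Ifitm5, a membrane protein gene of osteoblasts at 514 to 2672 RPKM in osteoprogenitors, was at 35.5 RPKM in library I and 8.62 RPKM in library J and at most 0.173 RPKM in D, E and G. Col1a1 was at 13.4 and 28.6 RPKM in I and J, but also at 14.4 RPKM in E. Bglap was at 108 and 75.4 RPKM in I and J against 19.1, 7.75 and 17.9 RPKM in D, E and G, and healthy library O reached 79.2 RPKM with Ifitm5 at 56.1 RPKM and Spp1 at 10.2 RPKM. Bglap2 was at 45.4 and 42.7 RPKM in I and J and at most 5.48 RPKM in D, E and G. Dmp1 was at 21.8 RPKM (2076 reads) in J, above the lowest osteoprogenitor library at 11.9 RPKM. Some osteoblast genes were at or near 0 in the same libraries. Sp7, Bmp7 and Dlx3 were at 0 in all 5, Phex had 0 and 5 reads in I and J, and Fam20c had 1 and 5 reads. The 8 further genes by which the study describes osteoprogenitors summed to 13.5 RPKM in I (4 of 8 above 0), 32.9 RPKM in J (5 of 8) and 15.8 RPKM in E (3 of 8), against 2086 to 9641 RPKM in osteoprogenitors. The endothelial gene Cdh5 was at 291 and 308 RPKM in I and J, within the 135 to 369 RPKM of the other 3. The 7 osteoclast and macrophage markers summed to 149 and 40.0 RPKM in I and J and to 264 RPKM in E, with the osteoclast enzyme gene Acp5 at most 0.126 RPKM in all 5. The part of other cells in the Spp1 and Ibsp values was not tested.

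**Figure D5:**
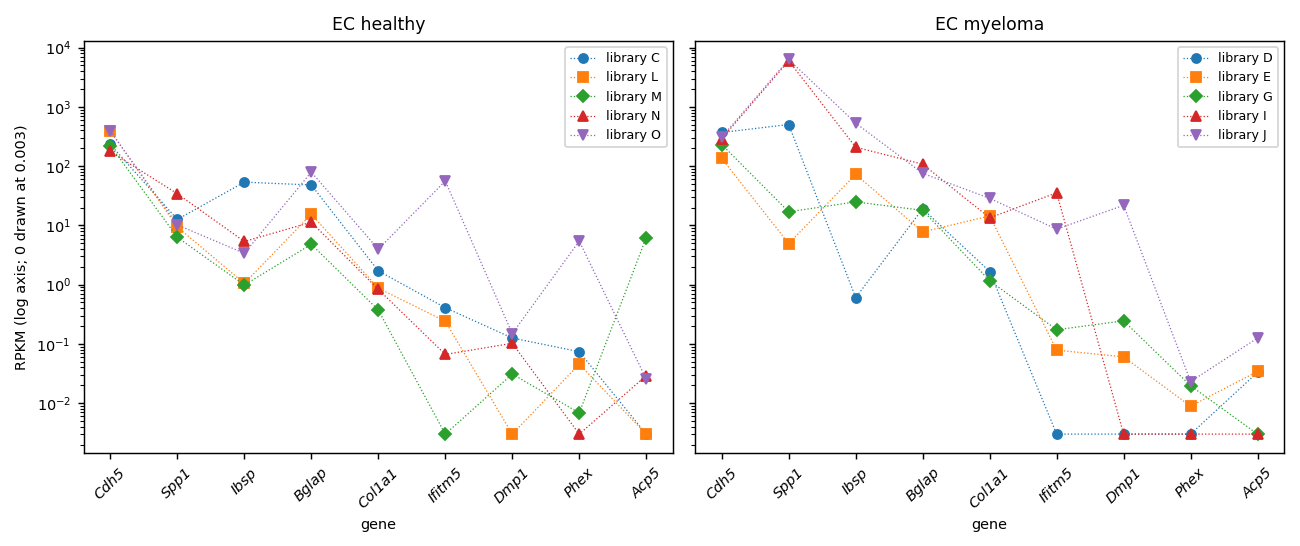
Levels of osteoblast genes, of the endothelial gene Cdh5 and of the osteoclast gene Acp5 in each endothelial library (RPKM, log axis, values of 0 drawn at 0.003), for healthy (left) and myeloma-bearing mice (right). Dotted lines join the values of a library. Spp1 is at 5984 and 6302 RPKM in myeloma-bearing libraries I and J, while Cdh5 lies between 135 and 369 RPKM in all 5.

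Between bone-lining and central-marrow myeloma cells 0 of the 5 genes tested were called, where 0.203% of 8857 genes (18 genes) were. Alpl had -0.62 ± 0.36 (adjusted p = 0.883), and Bglap, Bglap2, Spp1 and Ibsp lay between 0.23 and 0.65. The 2 groups overlapped for all 5, and did not for 1.47% of the genes tested.

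Genes with which the 8 act were read from lists made by function. Values are given for 2 osteoblast transcription factors, and nothing is drawn from them about the others. Sp7, the gene of osterix, had log2 fold changes of 2.31 (adjusted p = 0.171, not called) in healthy and 3.91 (adjusted p = 0.0122, called higher) in myeloma-bearing osteoprogenitors against stromal progenitors. Dlx5 had 2.0 and 1.30, and was called in neither. The median over all genes tested was 0.0013 and -0.013 in the 2 comparisons, and stands beside the list medians that follow.

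Both collagen I genes were called higher in osteoprogenitors in both comparisons. Of 10 genes of collagen I and bone matrix, 2 were called higher in healthy mice, Col1a1 (2.38) and Col1a2 (1.87), and 4 in myeloma-bearing mice, the same pair with Sparc (1.60) and Serpinf1 (1.31), with list medians of 0.72 and 1.09. Serpinh1, the collagen chaperone, had 1.21 and 0.99 and was not called. Among regulators of phosphate and mineral, 3 of 9 were called higher in healthy mice and 4 of 10 in myeloma-bearing mice, with medians of 0.95 and 1.66. These were in both comparisons Ifitm5 (9.50 and 8.79), Smpd3 (3.99 and 3.94), a sphingomyelinase gene required for mineralisation, and Vdr (3.78 and 4.12), the vitamin D receptor that acts on osteocalcin transcription. The further one in myeloma-bearing mice was the phosphodiesterase gene Enpp6 (4.55).

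Further lists held few called genes. Of 3 osteocyte genes none was called in healthy mice and 1, Irx5 (3.73), in myeloma-bearing mice, with medians of 1.51 and 2.44. The genes of gamma-carboxylation and of kinases related to FAM20C had 0 of 4 called in both comparisons, with medians of 0.42 and -0.05. Fam20a, whose product assists FAM20C, had 1.38 and 0.04. Of receptors of osteopontin and osteocalcin 0 of 6 were called in both, with medians of -1.18 and -1.35, Itgb3 at -1.62 and -1.38 and Itgb5 at -1.44 and -1.61. In the comparisons of myeloma-bearing with healthy mice, 0 genes of any of these lists were called.

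Marker lists of other cells were read in the same way. Of 7 chondrocyte genes, 5 were called higher and 1 lower in healthy osteoprogenitors than in stromal progenitors, with a median of 2.60, and 3 higher in myeloma-bearing mice, with a median of 1.64. The largest were the cartilage matrix genes Col9a1 (6.95 and 7.64), Matn3 (6.13 and 6.82) and Col2a1 (4.48 and 5.38). Acan (2.60) and Sox9 (1.69) were the other genes called higher in healthy mice, and Comp (-1.55) the one called lower. The genes called higher had the direction of Bglap, Comp had the opposite one, and the part of chondrocytes in the Bglap values was not tested. Of 3 osteoclast and macrophage genes and of the single neutrophil, single endothelial and single plasma cell gene tested, 0 were called in healthy mice, and likewise in myeloma-bearing mice, where 2 plasma cell genes were tested. Of 8 stromal and adipogenic genes Ly6a, by which the cells were sorted, was lower in both (-6.65 and -6.01), and Adipoq was higher in healthy mice (4.98). Of 8 further genes by which the study describes osteoprogenitors 5 (Bmp7, Cdh2, Col1a1, Dkk1 and Sox9) were called higher in healthy and 6 in myeloma-bearing mice. Sparc, Serpinf1, Enpp6, Irx5 in myeloma-bearing mice, Acan, Sox9, Comp and these 5 are named because their counts are small, which was decided after their values were seen.

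The genes whose profile over all 38 libraries was most like each of the 8 were taken from 12683 genes by Pearson's r of log2(RPKM + 1). These coefficients describe these libraries, which share depth and cell type between genes. Bglap was closest to Bglap2 (r = 0.977), Ifitm5 (0.935) and the carbonic anhydrase gene Car3 (0.934), and Bglap2 after Bglap to Car3 (0.929) and Slc36a2 (0.928). Phex was closest to the citrate transporter gene Slc13a5 (0.959), Col9a1 (0.954) and Panx3 (0.952), and Dmp1 to Insc (0.917), Vdr (0.902) and Unc5c (0.891). Ibsp was closest to Col1a1 (0.953), Nt5e (0.947) and Thbs1 (0.945), whereas Spp1 was closest to Col6a2 (0.939), Anxa8 (0.929) and Scara3 (0.925). Fam20c was closest to the cartilage genes Lect1 (0.870) and Col9a3 (0.864) and to Il17d (0.853). The coefficients of Alpl were lower, with Btg2 (0.705), Zfp869 (0.701) and Zfp275 (0.685) at the top.

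Among the 8 genes themselves, the closest pairs over 38 libraries were Bglap with Bglap2, Spp1 with Ibsp (0.912) and Bglap with Phex (0.910), and the loosest was Spp1 with Alpl (0.182). Within the 8 osteoprogenitor libraries Bglap and Bglap2 still moved together (0.996), and Bglap had 0.572 with Ibsp, 0.538 with Phex, 0.503 with Fam20c and 0.417 with Alpl, but -0.261 with Spp1 and -0.272 with Dmp1. After the osteocalcin copies the closest pair there was Alpl with Fam20c (0.642), and the lowest value was that of Bglap2 with Dmp1 (-0.315). These values are over 8 libraries and are given as a description.

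The genes of the acidic phosphoproteins lie within 238.4 kb of chromosome 5, all on the plus strand, in the order Dmp1 (chr5:104202613-104214102), Ibsp (chr5:104299171-104311469), Mepe (chr5:104325329-104338611) and Spp1 (chr5:104435118-104441050). Of the 3 measured neighbours Dmp1 and Ibsp had their highest mean in osteoprogenitors and Spp1 in stromal progenitors, although Spp1 and Ibsp were abundant in both. Fam20c lies on the same chromosome (chr5:138754514-138810077, plus strand), Alpl at chr4:137741733-137796384 (minus) and Phex at chrX:157162075-157415312 (minus). RUNX2, the leading transcription factor of osteoblasts, binds a motif with the core ACCACA, which reads TGTGGT on the other strand. The 250 bases before the transcription start (RefSeq, GRCm38.p6) of 3 genes that hold this core are shown 5′ to 3′ on the gene's strand, with the core in capitals on whichever strand it lies, since they are those of the osteocalcin gene with the higher level in osteoprogenitors, of the gene among the 8 that was highest in stromal progenitors, and of Dmp1, a neighbour of Spp1 with another pattern.
Bglap promoter, chr3:88384467-88384716, minus strand: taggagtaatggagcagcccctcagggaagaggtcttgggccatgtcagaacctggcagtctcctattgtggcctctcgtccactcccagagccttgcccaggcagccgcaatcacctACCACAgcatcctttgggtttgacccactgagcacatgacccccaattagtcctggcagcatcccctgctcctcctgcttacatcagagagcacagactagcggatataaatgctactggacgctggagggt
Spp1 promoter, chr5:104434861-104435110, plus strand: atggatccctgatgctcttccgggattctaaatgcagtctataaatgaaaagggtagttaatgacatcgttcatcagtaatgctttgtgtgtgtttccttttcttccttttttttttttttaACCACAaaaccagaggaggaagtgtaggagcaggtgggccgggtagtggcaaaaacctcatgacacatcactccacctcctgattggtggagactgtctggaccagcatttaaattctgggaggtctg
Dmp1 promoter, chr5:104202367-104202616, plus strand: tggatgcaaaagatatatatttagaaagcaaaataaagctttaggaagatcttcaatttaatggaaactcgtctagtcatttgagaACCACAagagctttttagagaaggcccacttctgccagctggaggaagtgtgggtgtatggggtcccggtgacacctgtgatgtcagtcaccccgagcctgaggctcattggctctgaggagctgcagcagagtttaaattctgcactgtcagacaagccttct
The core begins 132 bases before the start of Bglap, 128 before that of Spp1 and 164 before that of Dmp1. Of 8 of the 9 genes with an entry, 4 held a core in at least 1 window, the fourth being Mepe, and 4 of their 11 windows did. Over all 32851 windows of this length 14.0% held it. Bglap2 had no entry. A match of letters is a description and does not show binding in these cells.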

How the data were processed

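RNA-Seq values of 38 libraries of 100 sorted cells were analysed. The authors amplified cDNA by SmartSeq2, sequenced 50-base single-end reads, aligned them with STAR 2.4.0 to GRCm38, counted them on genes with featureCounts (Subread 1.4.5-p1, default settings), removed genes that did not exceed 1 CPM in 4 or more libraries, and deposited RPKM values from edgeR. No strand is given, and 0 columns lacked a sample.

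From these RPKM values, reads were recovered as whole multiples of the value of 1 read (13260 of 13260 genes, tolerance 0.02). Depth was 9735031 to 34883291 reads on genes. Amplified reads are not independent molecules, so limits on counts of 0 (3 reads) cover counting error only.

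Comparisons used limma 3.58.1 in R 4.3.3 (lmFit, eBayes with trend) on log2(RPKM + 1), only the libraries compared, and genes exceeding 1 RPKM in 4 or more of those. limma on RPKM stands in for the voom-limma of the study, whose design was run as an alternative on the recovered reads. It was tested on simulated data, where it found the changed genes at a small spread between libraries and missed most of them at a large one. In these data the SD of Bglap was 85.0% of its mean in healthy and 37.6% in myeloma-bearing osteoprogenitors. A gene that was not called may therefore still differ. A gene was called at a Benjamini-Hochberg adjusted p below 0.1 over all genes tested and an absolute log2 fold change above 1. Python 3.11.15 with numpy 2.4.6, pandas 2.3.3 and matplotlib 3.10.9 did the rest.

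All 9 genes were named, up to 3 genes of each list by the size of the difference between osteoprogenitors and stromal progenitors of healthy mice, and the 3 genes most like each of the 8 over the 38 libraries. The genes, lists and alternatives were chosen with earlier results of these data known. Alternatives covered the pseudocount, filter, libraries in the fit, variance trend, scaling, test on reads, replicate letters and leaving out each library. Same-lettered libraries did not deviate together (r from -0.0488 to 0.117 over the pairs), so letters were not taken as pairs. One result among the osteoblast transcription factors, with the counts and median of that list, is not reported here.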

Additional observations from a re-analysis of the deposited data

Results flagged for a closer look

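Single libraries far from the rest of their group were looked for in 63 sets, each of 1 gene in a group of 4 or 5 libraries, and 16 were found by Dixon's test, where chance gives about 1 in 20, or 3.1. The test was run on log2(RPKM + 1), and 8 of the 16 values lay above 1 RPKM and 8 at or below it.

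Dmp1 gave 5 of them. The highest library of its group held 68.9 RPKM in healthy osteoprogenitors (L), 112 RPKM in myeloma-bearing stromal progenitors (J), 21.8 RPKM in myeloma-bearing endothelial cells (J), 0.336 RPKM in bone-lining myeloma cells (G, 21 reads) and 0.216 RPKM in healthy stromal progenitors (N, 13 reads). In stromal library J Ifitm5 was at 42.8 RPKM, and in the other myeloma-bearing stromal libraries at most 0.51 RPKM. Bglap was also highest in J, at 197 RPKM against at most 157 RPKM in the others. Other genes of osteoprogenitors were low there, with Alcam at 0.0228 RPKM (2 reads) in J. In every library of that group Dkk1 was at 0 and Phex at most 0.117 RPKM. The part of other cells was not tested.

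Phex gave another 5, with 9.0 RPKM in healthy stromal progenitors (C, 1112 reads), 5.42 RPKM in healthy endothelial cells (O, 824 reads), 1.67 RPKM in bone-lining myeloma cells (J, 140 reads), 0.117 RPKM in myeloma-bearing stromal progenitors (D, 10 reads) and 0.0154 RPKM in central myeloma cells (G, 2 reads).

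Fam20c stood out in myeloma-bearing stromal progenitors (G, 8.61 RPKM), in myeloma-bearing endothelial cells (E, 4.09 RPKM) and in healthy endothelial cells (C, 0.423 RPKM, 22 reads). Low libraries were Alpl in myeloma-bearing stromal progenitors (G, 0.618 RPKM) and in healthy endothelial cells (L, 0 RPKM), and Bglap2 in myeloma-bearing stromal progenitors (D, 0 RPKM, with 123 reads of Bglap in that library).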

How the results depend on the processing

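The number of the 8 genes called in osteoprogenitors against stromal progenitors was 5 in healthy mice, 3 to 6 without single libraries and 6, with Alpl, without stromal libraries C and L (chosen after seeing the data). In myeloma-bearing mice it was 7, 3 with no filter on low values, 4 with no variance trend, 3 to 8 without single libraries and 6 without stromal libraries E and J (Dmp1 gained, Spp1 and Fam20c lost, also chosen after seeing the data). Against endothelial cells it was 8, 5 in voom-limma and 5 to 8 without single libraries. Against myeloma cells it was 8, 5 in voom-limma and 6 to 8 without single libraries. Leaving out 1 of 4 osteoprogenitor libraries also removes genes that only they express from the test, since 4 libraries must pass the filter. In voom-limma the mean-variance trend fell below 0 (lowest -0.122). Weights reached 7.61e+09 for Bglap, 1.13e+08 for Spp1, 3.09e+06 for Ibsp and 245 for Bglap2, against a median of 0.151. Bglap had an adjusted p of 0.990 to 0.997 at log2 fold changes of 9.47 to 12.71. The part of the weights in this was not tested. Voom-limma called 4 of the 8 in healthy mice (Bglap2 with an adjusted p of 0.111) and 5 in myeloma-bearing mice against stromal progenitors. Between endothelial cells of myeloma-bearing and healthy mice it was 0, and 2 with all 38 libraries in one fit. The other comparisons kept 0 of the 8 called under all alternatives run.

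Of 28 called fold changes under 436 alternatives, 395 kept the call, 41 lost it and 0 changed sign. Of 36 not called under 645 alternatives, 13 passed and 43 changed sign. The changes of sign were of differences between myeloma-bearing and healthy mice, niches or changes. Without single libraries, osteoprogenitors ranged from -0.25 to 0.31 in Ibsp, -0.55 to 0.70 in Dmp1, -0.77 to 0.16 in Phex and -0.77 to 0.0059 in Spp1. Stromal progenitors ranged from -0.84 to 0.70 in Bglap2, -0.71 to 0.90 in Alpl and -0.43 to 0.048 in Ibsp. Endothelial cells ranged from -0.77 to 0.61 in Bglap2 and -1.25 to 0.27 in Alpl. Myeloma cells ranged from -0.16 to 0.78 in Spp1 and -0.087 to 1.52 in Bglap. The interaction ranged from -0.050 to 1.00 in Bglap, -0.049 to 0.51 in Ibsp, -0.27 to 0.81 in Phex, -0.51 to 0.27 in Spp1 and -0.28 to 1.33 in Alpl. Voom-limma gave -0.50 for Ibsp in osteoprogenitors and -0.57 and -0.21 for the interaction of Bglap and Ibsp. Left out after seeing the data, stromal libraries E and J gave -0.64 for Alpl, endothelial libraries I and J -0.53 for Bglap, and D, I and J -0.74 for Bglap and -0.36 for Spp1. Unless named, the cause was not tested.

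With the replicate block for letters, Alpl passed in healthy mice against stromal progenitors (3.59, adjusted p = 0.0260) and Fam20c did not in myeloma-bearing mice (3.66, adjusted p = 0.180), no other call among the 8 genes changed, and 195 genes were called there in place of 295. A sample correlated best with its own letter in 1 or 2 of 4 pairs, and in 1 of 5 for myeloma cells. No block was fitted between healthy and myeloma-bearing mice, which share no letter. Over all genes, calls in osteoprogenitors against stromal progenitors were 312 in healthy mice, 646 in voom-limma and 181 to 343 without single libraries, and 295 in myeloma-bearing mice, 543 with all libraries in one fit, 567 in voom-limma and 142 to 311 without single libraries. Against endothelial cells they were 1361, 2232 with all libraries in one fit, 2883 in voom-limma and 567 to 1372 without single libraries. Between myeloma-bearing and healthy mice, calls rose with all libraries in one fit and in voom-limma, from 1 to 16 and 28 in osteoprogenitors, from 0 to 31 and 82 in stromal progenitors, from 0 to 258 and 251 in endothelial cells and from 0 to 16 and 16 for the interaction. Between myeloma niches they were 18, 1 with no filter, 12 in voom-limma and 10 to 24 without single libraries. The lists of most like genes kept 1 to 3 of 3 genes with a pseudocount of 0.1. The 100 cells per library and low read counts limit Dmp1, Phex and Fam20c outside osteoprogenitors.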
